A study of Homo sapiens with 3 samples.

Results

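The intestinal identity and differentiation genes examined here were CDX1, CDX2, HNF4A, KRT8, KRT18, KRT19, KRT20, VIL1, MUC2 and CEACAM5. They were taken as a set by name, with every non-control probe that carried 1 of these gene names, which gave 10 of the 41749 gene names and 18 of the 58201 probes on the array. To examine gene expression after loss of PRMT1, an enzyme that methylates arginine residues of histones and other proteins, RNA of HCT116 cells was hybridised to 1-colour Agilent arrays. HCT116 is a human colorectal carcinoma cell line, grown here in McCoy's 5A medium with fetal bovine serum. The 3 groups were a negative control (PRMT1-NC, NC below) and the knockdowns PRMT1-KD1 (KD1 below) and PRMT1-KD2 (KD2 below). Per the labels the knockdowns used small interfering RNAs delivered with Lipofectamine, and the labels do not pair either interfering RNA with KD1 or KD2. Each group had 1 array, so no difference has a replicate check, and KD1 and KD2 were both compared with the same NC array.

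The intestinal epithelium is kept by a small set of transcription factors. CDX1 and CDX2 are homeobox factors that specify intestinal against stomach epithelium, and HNF4A is a nuclear receptor that works with them on genes of absorptive cells. The keratins of simple epithelia form obligate pairs of a type II chain (KRT8) with a type I chain (KRT18, KRT19 or KRT20), and KRT20 is mostly found in the differentiated cells near the lumen. VIL1 encodes villin, which bundles the actin of brush border microvilli. MUC2 encodes the gel-forming mucin of goblet cells, and CEACAM5 encodes carcinoembryonic antigen, a surface protein of the colon.

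Each probe was 60 bases long, and 4 of the 18 crossed a splice junction on the genome. The probes below are those on which KRT18, MUC2 and CDX1 were called detected, the KRT8 probes other than its 3′ probe, and the probes of HNF4A and CEACAM5. The 3′ probe of KRT8 and the single probes of CDX2, KRT19, KRT20 and VIL1 are named only. Each is printed 5′ to 3′ with its hg19 position and strand. Capitals in the CDX1 probe mark the stop codon at its end.
KRT18 probe A_24_P42136 (chr12:53345577-53345636, plus strand): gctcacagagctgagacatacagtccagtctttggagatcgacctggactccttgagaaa
KRT18 probe A_32_P151544 (chr12:53346116-53346554, plus strand): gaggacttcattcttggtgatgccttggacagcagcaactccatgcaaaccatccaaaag
KRT8 probe A_24_P67395 (chr12:53294461-53294995, minus strand): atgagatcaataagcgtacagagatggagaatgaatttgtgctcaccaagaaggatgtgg
KRT8 probe A_33_P3372368 (chr12:53343241-53343300, minus strand): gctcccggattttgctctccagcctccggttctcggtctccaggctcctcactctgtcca
MUC2 probe A_33_P3401571 (chr11:1092337-1092396, plus strand): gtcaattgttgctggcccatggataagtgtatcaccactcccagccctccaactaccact
MUC2 probe A_23_P256784 (chr11:1103558-1103831, plus strand): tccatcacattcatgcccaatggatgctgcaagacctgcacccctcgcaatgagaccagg
CDX1 probe A_33_P3289848 (chr5:149563184-149563243, plus strand): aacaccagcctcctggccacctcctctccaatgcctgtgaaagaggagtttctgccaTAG
HNF4A probe A_23_P28761 (chr20:43036102-43042379, plus strand): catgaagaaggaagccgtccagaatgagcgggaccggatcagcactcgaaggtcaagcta
CEACAM5 probe A_23_P153301 (chr19:42224984-42225043, plus strand): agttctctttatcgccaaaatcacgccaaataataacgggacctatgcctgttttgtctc

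Levels are given as the normalized log2 signal, which is the log2 of the background-corrected fluorescence intensity minus the 75th percentile of the probes on the same array. A level can be compared between arrays for 1 probe, and not between probes. A gene was taken as past the threshold when its change reached 1.5-fold, the fold named in the study's methods. The error given after ± is the error of the extraction software's model for both spots of a difference (n = 1 array per group), and it leaves out any variation between cultures.

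The 3 arrays shared 1 slide and 1 scan. The share of probes well above background was between 40.8% and 42.5%, and the 75th percentile of intensity on NC, KD1 and KD2 was 117, 153 and 125. The targeted gene was checked first. The PRMT1 probe (A_23_P39088) had a normalized log2 signal of 6.01 on NC, 2.75 on KD1 and 1.45 on KD2, a change of -3.26 ± 0.20 in KD1 and of -4.56 ± 0.20 in KD2. Both knockdown arrays thus lay far below the control for the gene named in their labels.

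Of the 10 genes, 6 were detected and 4 were not. CDX1, CDX2, KRT8, KRT18, KRT19 and MUC2 each had at least 1 probe well above background on all 3 arrays, and together these were 10 of the 18 probes. The single probes of HNF4A, KRT20, VIL1 and CEACAM5 were not well above background on any array, nor were 2 of the 3 CDX1 probes and 2 of the 4 MUC2 probes. No probe was detected on some arrays and not on others. GC content was 35% to 61.7% in the detected probes (median 53.3%) and 36.7% to 55% in the others (median 49.2%).

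**Figure D1:**
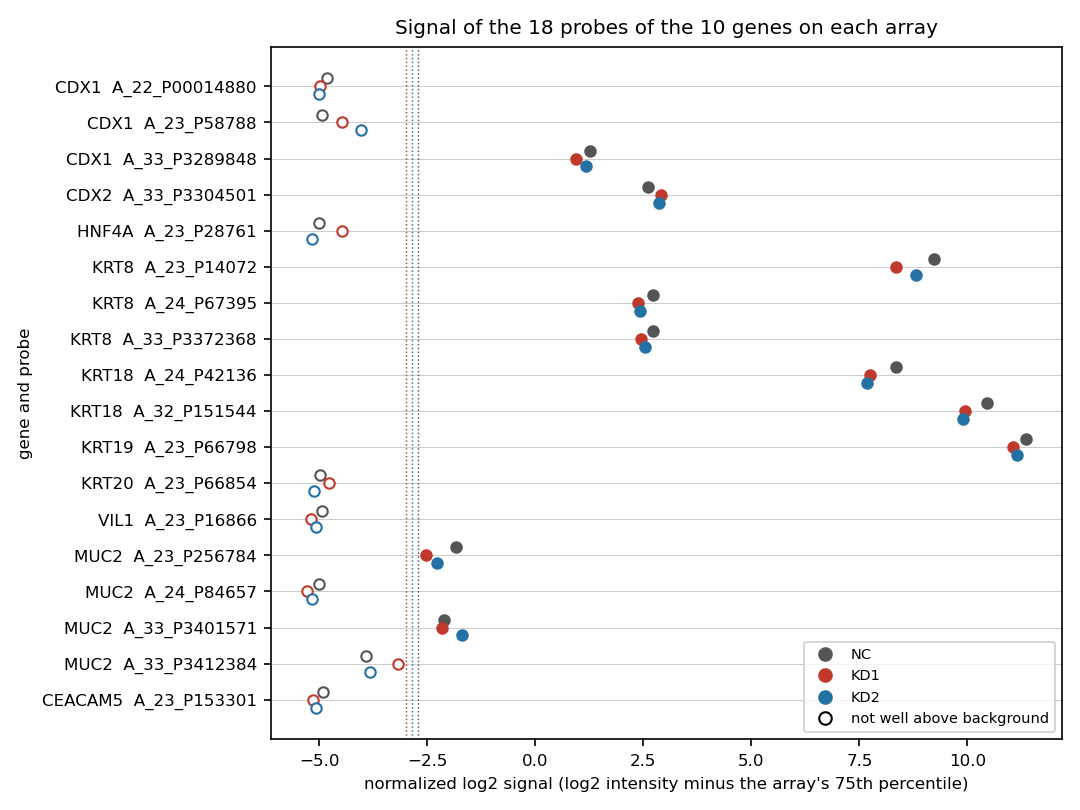
Normalized log2 signal (x axis) of each of the 18 probes (rows) on the NC, KD1 and KD2 arrays. Filled points are well above background, open points are not, and dotted lines mark the lowest signal that was well above background on each array. Detected and undetected probes form separate blocks that are the same on all arrays, and only points of the same row can be compared.

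Among the transcription factors, CDX2 was higher than the control on both knockdown arrays without reaching the threshold. Its probe (A_33_P3304501, chromosome 13, 28536302 to 28536361 on the minus strand) had a level of 2.60 on NC, 2.91 on KD1 and 2.86 on KD2. The difference was 0.31 ± 0.20 in KD1, or 124% of the control signal, and 0.26 ± 0.20 in KD2, or 120%. The knockdown arrays lay 0.05 apart. In all 8 alternative ways of processing that could alter its value, CDX2 stayed above the control in both knockdowns, and in KD1 it passed 1.5-fold in 2 of them.

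CDX1 was below the control on both arrays, by less than the threshold. The probe at the end of its coding sequence, printed above, had a level of 1.27 on NC, 0.94 on KD1 and 1.16 on KD2. The difference was -0.33 ± 0.21 in KD1 and -0.11 ± 0.21 in KD2. The other 2 CDX1 probes lie downstream on the same transcript, at 149563427 to 149563486 and 149563818 to 149563877. Their intensities ranged from 3.82 to 7.65, whereas the coding probe read 282 on NC, 294 on KD1 and 281 on KD2. CDX1 is thus called detected here on 1 of its 3 probes, and with the mean over the 3 probes its change was -0.01 in KD1 and 0.20 in KD2.

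HNF4A was not detected. Its probe read an intensity of 3.63 on NC, 6.87 on KD1 and 3.49 on KD2, below the lowest intensity well above background of 17.4 to 19.2. That probe crosses a junction, with 6278 bases of genome between its ends, and the array's annotation lists it for 3 of the 10 RefSeq transcripts of the gene, so transcripts that it does not cover were not measured.

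Of the simple keratins KRT8, KRT18 and KRT19 were detected, and all 6 probes under their names were lower on both knockdown arrays than on the control. These include a KRT8 probe annotated to a non-coding transcript, whose signal may not stand for KRT8 messenger RNA. The direction turned under some alternatives for KRT18 in KD1 and for KRT19 in both. KRT8, the type II chain, was the only 1 of the 6 detected genes whose brightest probe passed the threshold. Its 3′ probe (A_23_P14072, chromosome 12, 53291026 to 53291085 on the minus strand) had a level of 9.22 on NC, 8.35 on KD1 and 8.82 on KD2. In KD1 it fell by 0.87 ± 0.20 log2 units and kept 54.9% of the control signal. In KD2 the difference was -0.40 ± 0.20, or 76.0% of the control signal, which did not reach the threshold. KRT8 ranked 984 of 19231 genes from the lowest in KD1 and 4008 of 19421 in KD2.

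The other KRT8 probes gave smaller differences. The junction probe A_24_P67395 had a level of 2.73 on NC, 2.38 on KD1 and 2.43 on KD2, a difference of -0.35 ± 0.20 in KD1 and -0.30 ± 0.20 in KD2. Probe A_33_P3372368 had 2.71, 2.44 and 2.55 in the same order, a difference of -0.28 ± 0.20 in KD1 and -0.17 ± 0.20 in KD2. This last probe is annotated to a non-coding KRT8 transcript (NR_045962). It lies 48245 bases from the nearest other KRT8 probe and 2276 bases from the nearest KRT18 probe, on the opposite strand to KRT18. In RefSeq the spans of KRT8 and KRT18 overlap by 1006 bases, and whether this probe lies in the overlap was not tested. Its signal may therefore not stand for the KRT8 messenger RNA. The 3 probes thus gave changes between -0.87 and -0.28 in KD1, and the call for KRT8 rests on the 3′ probe alone. With the mean over the 3 probes, the non-coding one included, the change in KD1 was -0.50.

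KRT18, the usual partner chain of KRT8, was lower on both arrays, and its 2 probes fell on either side of the threshold. The brighter probe, A_32_P151544, had a level of 10.46 on NC, 9.94 on KD1 and 9.89 on KD2. The difference was -0.52 ± 0.20 in KD1, or 70.0% of the control signal, and -0.57 ± 0.20 in KD2, or 67.5%, both short of 1.5-fold. The other probe, A_24_P42136, had a level of 8.36 on NC, 7.75 on KD1 and 7.67 on KD2. It fell by 0.60 ± 0.20 in KD1 and by 0.69 ± 0.20 in KD2, past the threshold on both arrays. The knockdown arrays lay 0.05 apart for the brighter KRT18 probe, against 0.47 for the 3′ probe of KRT8, where KD1 was the lower array.

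KRT19, a type I keratin without the usual tail domain, was close to the control. Its probe (A_23_P66798, chromosome 17, 39679918 to 39679977 on the minus strand) had a level of 11.36 on NC, 11.06 on KD1 and 11.15 on KD2. The difference was -0.29 ± 0.20 in KD1 and -0.20 ± 0.20 in KD2, and its direction turned in 4 of the 8 alternatives that could alter it in KD1 and in 2 in KD2. KRT20, the keratin of differentiated surface cells, was not detected, with intensities of 3.71 on NC, 5.56 on KD1 and 3.60 on KD2.

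Probes annotated to keratin pseudogenes were also on the array, and 3 of the 4 were detected. KRT8P12 differed from NC by -0.80 in KD1 and by -0.31 in KD2, KRT18P55 by -0.32 and -0.60, and KRT19P2 by -0.29 and -0.26. The longest run of bases that such a probe shared with a probe of its parent gene was 5 to 8. The rest of the parent transcript was not compared, so this run cannot show whether the pseudogene probes also read transcripts of the parent genes. That was not tested. Conversely, signal of near-identical keratin copies in the parent probes cannot be told apart from the parent's own.

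**Figure D2:**
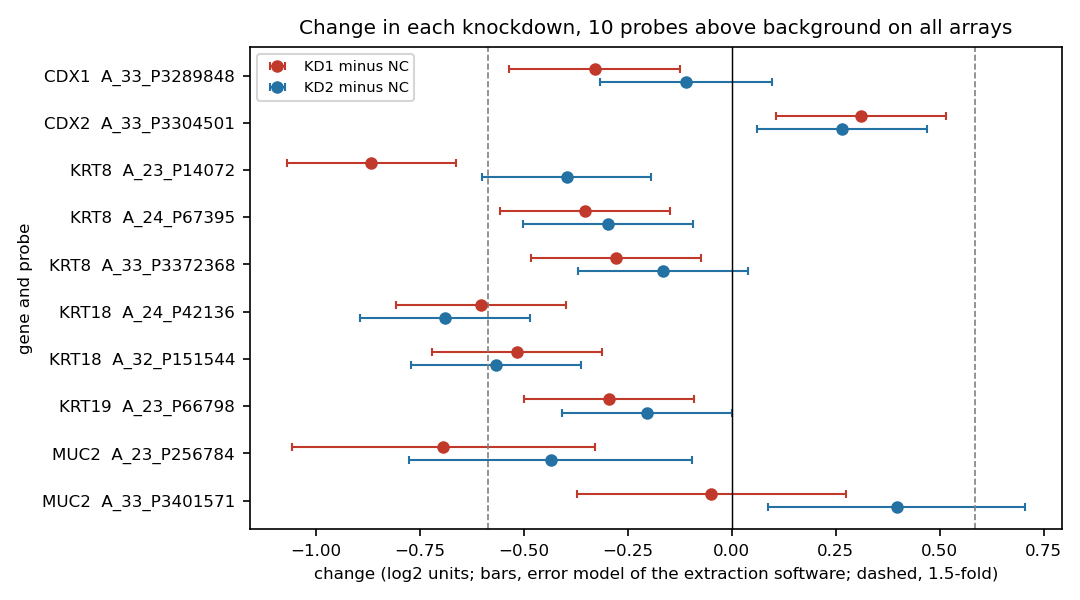
Change (x axis, log2 units) of each of the 10 detected probes (rows) in KD1 and KD2 against NC. Bars are the error of the extraction software's model and dashed lines mark 1.5-fold. On this scale all 6 keratin probes lie below 0 for both knockdowns (under other scalings KRT18 in KD1 and KRT19 can turn). KRT8 probe A_33_P3372368, annotated to a non-coding transcript, is among them. The CDX2 probe lies above 0, and the MUC2 probes lie on different sides of 0 in KD2.

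MUC2 gave a weak signal on which its probes disagreed. Probe A_33_P3401571, the brighter of its 2 detected probes on average but not on NC, had a level of -2.10 on NC, -2.15 on KD1 and -1.71 on KD2, a difference of -0.05 ± 0.32 in KD1 and 0.40 ± 0.31 in KD2. Probe A_23_P256784 had a level of -1.84 on NC, -2.54 on KD1 and -2.28 on KD2, a difference of -0.69 ± 0.36 in KD1 and -0.44 ± 0.34 in KD2. In KD2 the probes thus differed by 0.83 log2 units and in direction, so the choice of probe sets the sign for the gene. Their intensities were between 25.8 and 38.4 on the 3 arrays, close to the lowest intensity well above background. The remaining probes read 7.72, 16.8 and 8.80 (A_33_P3412384) and 3.61, 3.94 and 3.50 (A_24_P84657) on NC, KD1 and KD2.

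The brush border gene VIL1 and the surface antigen gene CEACAM5 were not detected. VIL1 read an intensity of 3.81 on NC, 4.19 on KD1 and 3.69 on KD2. CEACAM5 read 3.85, 4.29 and 3.72, on a probe listed for 2 of the 7 RefSeq transcripts of the gene. The negative control spots had medians of 3.85 on NC, 4.28 on KD1 and 3.68 on KD2. Of the 24 values from undetected probes, 4 lay over the 95th percentile of the negative control spots of their array. These were the values of MUC2 probe A_33_P3412384 on each array and the KD2 value of CDX1 probe A_23_P58788. None came from HNF4A, KRT20, VIL1 or CEACAM5. A gene not well above background may still be expressed at a level the array does not resolve, and no fold is given for these 4 genes.

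Counted over the 6 detected genes with the brightest probe of each, 1 was lower by 1.5-fold in KD1 (KRT8) and 0 were higher. Over all 19231 genes measured in KD1, 12.8% were lower and 13.2% were higher by this fold. In KD2, 0 of the 6 were past the threshold either way, against 10.7% lower and 9.56% higher of the 19421 genes measured. The median change of the 6 was -0.31 in KD1 and -0.16 in KD2, and that of all genes was -0.04 and -0.05. The median of the 6 depended on the scaling. In KD1 it was 0.30 with spike-in scaling and 0.0777 with the series matrix values. For KD2 it was 0.14 with spike-in scaling and 0.00812 with normexp background correction and quantile normalization. Of the 6 genes, 4 were lower than NC on both arrays and 1 (CDX2) was higher on both. Over all genes measured, 53.6% were lower than NC in KD1 and 54.7% in KD2. The share lower on both was not computed, and both changes use the same NC array. In these bulk samples, fewer cells with a transcript and less of the transcript per cell cannot be told apart.

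Between the knockdowns, 0 of the 6 genes differed by 1.5-fold, whereas 18.7% of the 19544 genes measured did so in either direction. The KD1 minus KD2 difference was -0.47 for KRT8, -0.45 for MUC2, -0.22 for CDX1 and -0.09 for KRT19, and it was 0.05 for both CDX2 and KRT18. For comparison, the robust SD of this difference was 0.38 over the 17054 genes with a probe detected on each array. The same SD was 0.48 for KD1 minus NC and 0.41 for KD2 minus NC. By the brightest probe of each gene, KRT8 in KD1 and KRT18 in both knockdowns lay further from the control than these values. The other detected genes did not. The second detected MUC2 probe, A_23_P256784, lay further in both knockdowns (-0.69 in KD1 and -0.44 in KD2).

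KD1 and KD2 were also taken as 1 group of 2 arrays against the lone NC array with limma, which assumes that NC varies as the knockdown arrays do. None of the 6 genes passed an adjusted p of 0.05. The mean change was -0.63 for KRT8 (SE 0.34, limma adjusted p = 0.696), -0.54 for KRT18 (SE 0.30, limma adjusted p = 0.706) and 0.29 for CDX2 (SE 0.30, limma adjusted p = 0.832). The limma adjusted p was 0.885 for CDX1, 0.860 for KRT19 and 0.926 for MUC2. Over all genes, 0 of 20050 (0%) passed in limma, with 1502 at an unadjusted p under 0.05, and PRMT1 itself reached a limma adjusted p of 0.0793. This fit therefore made no call in any gene, and a p above the threshold does not show that the genes were unaltered.

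The size of the changes depended on the scaling. Scaled to the spike-in RNA instead of the 75th percentile, the median change of all genes was 0.57 in KD1 and 0.24 in KD2. On that scale KRT8 differed by -0.26 in KD1, KRT18 by 0.09 and CDX2 by 0.92. Of the 11 alternatives, 9 could alter the values of KRT8 and KRT18. KRT8 was below the control in KD1 under all 9, from -0.94 to -0.26, and past 1.5-fold in 5 of them. KRT18 was below the control in KD1 under 8 of the 9 and in KD2 under all 9, from -0.72 to -0.24. Taken relative to the median of all genes under the same scaling, KRT8 lay between -0.82 and -0.46 in KD1 and KRT18 between -0.52 and -0.04.

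**Figure D3:**
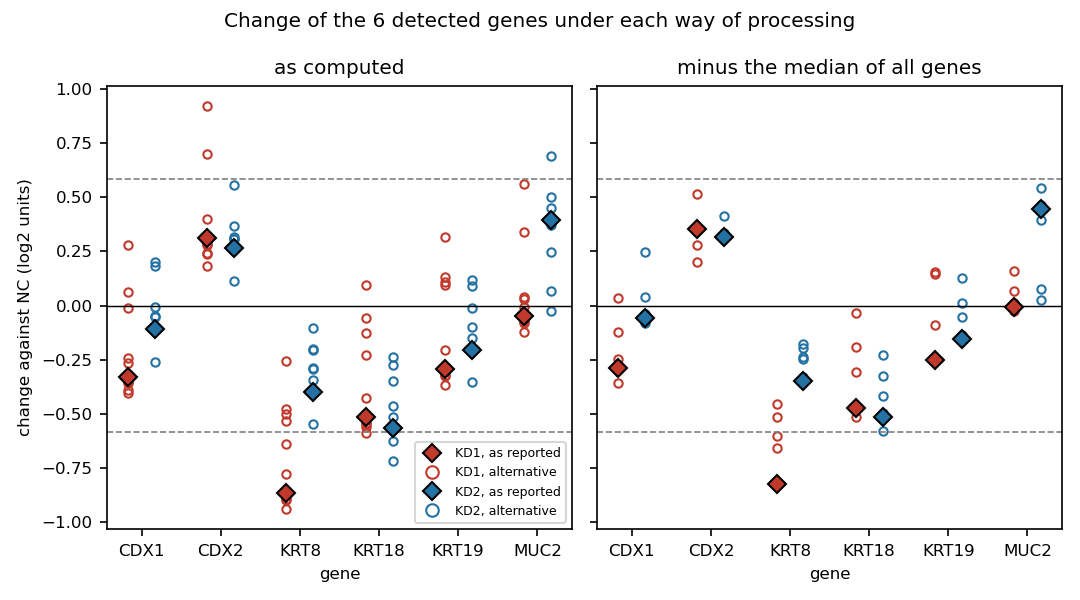
Change against NC (y axis, log2 units) of the 6 detected genes in KD1 and KD2, as reported (diamonds) and under each of 11 alternative ways of processing (circles), as computed (left) and after subtraction of the median change of all genes under the same processing (right). Dashed lines mark 1.5-fold, and alternatives that cannot alter a gene fall on its diamond. KRT8 lies below 0 and CDX2 above 0 in every setting, while CDX1, KRT19 and MUC2, and KRT18 in KD1 in the left panel, lie on both sides of 0. In the right panel MUC2 in KD2 stays above 0.

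To place the 10 genes among others of the same tissue, 6 lists of 119 further genes were counted in the same way, and 43 of these genes were above background on all 3 arrays. In KD1, 6 of the 52 measured genes were lower (11.5%) and 7 were higher (13.5%), where 12.8% and 13.2% of all genes were. In KD2, 6 of 56 were lower and 12 were higher, where 10.7% and 9.56% of all genes were. Of these 12 genes, 4 were not well above background on NC and could enter only by being high in KD2. Among the 43 list genes above background on both NC and KD2, 5 were lower and 8 were higher. The shares of all genes under that stricter filter were not computed, so these counts cannot be set against a background. Among the list genes detected on each array, 4 rose and 2 fell past the threshold in both knockdowns. The share of all genes that did so was not computed. Both changes use the same NC array, so this count is a description only. Genes named below that did not pass the threshold the same way in both knockdowns were named after their values were seen.

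Of the 22 other intestinal and endodermal transcription factors, 15 were measured in KD1, with 4 higher and 1 lower, and 16 in KD2, with 7 higher and 2 lower. Over all genes 13.2% were higher and 12.8% lower in KD1, and 9.56% and 10.7% in KD2. The medians of the factors were 0.23 and 0.26. The 1 lower factor in KD1 was GATA4, which was also 1 of the 2 lower in KD2. GATA4 was well above background on NC only, and ATOH1, 1 of the 7 higher in KD2, on KD2 only. Each thus entered these counts and medians only through the array where it was high. KLF5, a zinc finger factor of proliferating crypt cells, had a level of 0.84 on NC, 2.55 on KD1 and 2.15 on KD2. It rose by 1.71 and 1.30 log2 units. SOX9, a factor of crypt progenitors, had a level of 0.42 on NC, 1.87 on KD1 and 1.34 on KD2. It rose by 1.44 and 0.92. Both genes stayed past 1.5-fold above the control in both knockdowns under the 8 alternatives that could alter them.

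In KD2, the epithelial ETS factor ELF3 rose by 0.61 and the Notch target HES1 rose by 0.66, whereas in KD1 they differed by -0.24 and 0.10. The secretory lineage factor ATOH1 was detected on KD2 only, at least 1.93-fold higher than on NC. Another epithelial ETS factor, EHF, fell by 0.78 in KD2 and differed by -0.24 in KD1. GATA4, a zinc finger factor, was detected on NC only and by 1 of its 4 probes, where it was at least 4.32-fold higher than on KD1 and at least 3.91-fold higher than on KD2.

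Of the 30 brush border and absorptive cell genes, 19 were above background on no array. Of those measured, 1 of 10 was past the threshold in KD1 and 0 of 11 were in KD2. The 1 was PLS1, an actin-bundling protein of the microvillus, with 1.07 in KD1 and 0.06 in KD2. Over all genes 13.2% were higher and 12.8% lower by this fold in KD1, and 9.56% and 10.7% in KD2. Of the 26 goblet, Paneth and enteroendocrine genes on the array, 20 were above background on no array. For comparison, 20050 of all 41749 gene names were above background on at least 1 array. Chromogranin A (CHGA), a protein of endocrine granules, was not well above background on NC and was at least 1.92-fold higher on KD1 and at least 4.63-fold higher on KD2. RETNLB, a protein secreted by goblet cells, was past the threshold in KD2, with intensities of 17.3 on NC, where it was not well above background, 24.7 on KD1 and 38.3 on KD2. FCGBP, a protein of goblet cell mucus, fell by 0.60 in KD2 and differed by 0.14 in KD1.

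Of the 8 crypt stem cell genes, 5 were measured in each knockdown. PROM1, which encodes the surface protein CD133, had a level of -0.35 on NC, -1.09 on KD1 and -1.46 on KD2. It fell by 0.74 in KD1 and fell by 1.11 in KD2. In KD1 it missed the threshold with normexp (-0.43), the series matrix values (-0.35) and spike-in scaling (-0.13), and in KD2 with normexp (-0.57). The hyaluronan receptor CD44 rose by 0.98 in KD1 and differed by 0.21 in KD2. Of the 21 other keratins, 13 were measured in KD1 and 14 in KD2. KRT7, KRT83 and KRT78 fell in KD1, with changes of -0.80, -0.80 and -0.67, and in KD2 they differed by -0.46, -0.40 and 0.25. In KD2, KRT23 fell by 0.84, while KRT6A rose by 1.33 and KRT9 rose by 0.89. In KD1 these 3 genes differed by -0.23, -0.13 and 0.07. Of the 11 other CEACAM genes, CEACAM20 fell by 0.59 in KD1 and fell by 0.73 in KD2, but its direction in KD1 turned on the spike-in scale (0.0209). It was past the threshold in 5 of the 8 alternatives that could alter it in KD1 and in 7 in KD2. CEACAM7 was detected on KD2 only, at least 1.97-fold higher than on NC.

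**Figure D4:**
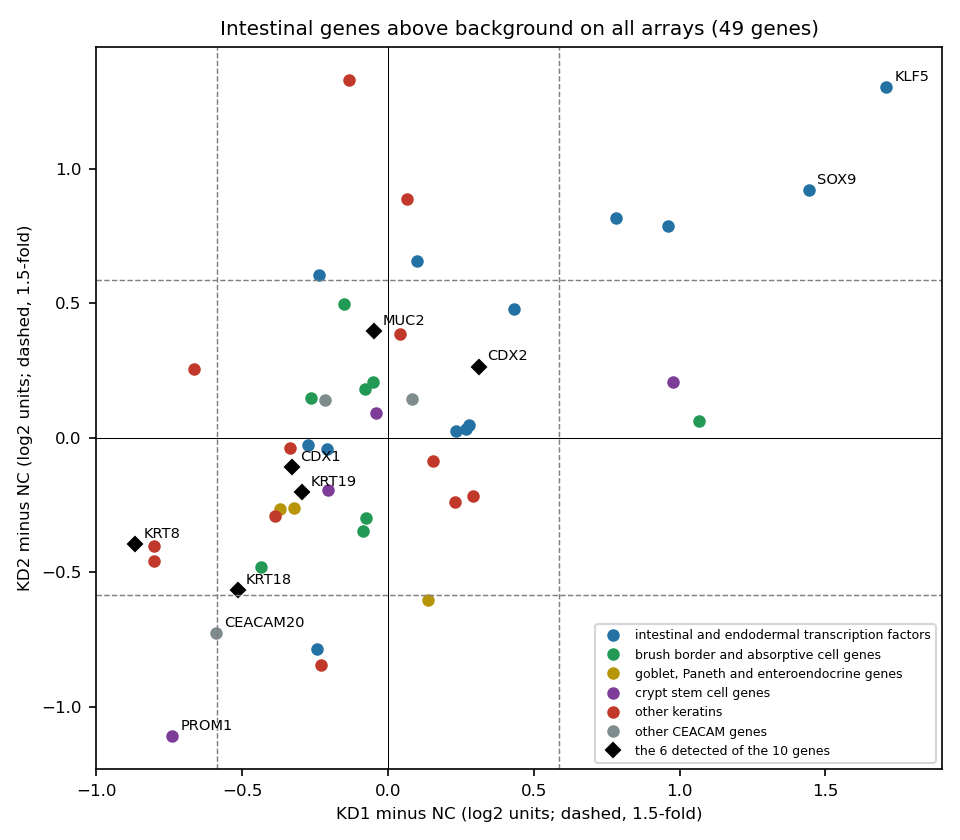
Change in KD1 (x axis) and in KD2 (y axis) against NC, in log2 units, of 49 genes detected on each array, namely 43 genes of the 6 lists and 6 of the 10 genes (black diamonds). Dashed lines mark 1.5-fold, and names are given for the 6 genes and for 4 list genes past the fold the same way in both knockdowns. KLF5 and SOX9 lie in the upper right corner, PROM1 and CEACAM20 in the lower left, and both axes share the NC array.

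The labelled cell type was checked against marker genes. All 8 epithelial markers were well above background on every array, with a summed unscaled intensity of 46708 on NC, 57651 on KD1 and 58173 on KD2. Counted by the brightest probe of each gene, 1 of the 7 fibroblast markers was detected (COL1A1, while PDGFRB had another probe above background on at least 1 array), of the 5 leukocyte markers on the array 2 were on NC and KD1 and 3 on KD2, of the 5 endothelial markers 2 and of the 6 hepatocyte markers 3. The summed intensities on NC, KD1 and KD2 were 356, 559 and 578 for fibroblast markers, 132, 202 and 284 for leukocyte markers, 80.2, 173 and 109 for endothelial markers and 304, 274 and 220 for hepatocyte markers. Their part in the changes of the keratins and transcription factors was not tested.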

How the data were processed

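The authors deposited the scanner output of 3 arrays, in which Agilent Feature Extraction 10.7.1.1 gave each spot a background-corrected fluorescence intensity. Per the file headers this intensity had not been scaled between arrays, and probe positions are on hg19. The deposited series matrix holds intensities per probe, which matched the mean scanner intensity within 0.1% for 99.7% to 99.8% of probes, unscaled, and served as an alternative.

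Control spots and spots marked as outliers were left out. Spots of a probe were averaged as log2 values, and each array's 75th percentile was subtracted. A gene was represented by its brightest probe, and 1507 probes without a gene name were not used. A gene was measured in a comparison when that probe passed the software's background test on either array. If the other array failed it, the lowest passing signal there stood in for any smaller value, so such a fold is a lower bound. The fold of 1.5 came from the study's methods, and the p-value named there needs replicate arrays. limma 3.58.1 (R 4.3.3) was fitted with Benjamini-Hochberg adjustment over all genes. Counting and limma were tested on simulated data with less noise than these arrays and changes larger than 1.5-fold. Those tests check the code and do not show how either performs on these data. Python 3.11.15, numpy 2.4.6, pandas 2.3.3 and matplotlib 3.10.9 were used.

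The 10 genes and the lists were chosen with earlier results of these data known. Named were every probe of the 10 genes, PRMT1, list genes past the fold the same way in both knockdowns on probes detected on all arrays, and keratin pseudogene probes. Some genes that this rule names are not reported here. Cell type markers were 8 epithelial genes, among them EPCAM, CDH1 and OCLN, with lists for fibroblasts, leukocytes, endothelium and hepatocytes. RefSeq tables served for names. SMARCA4 knockdowns, also part of the study, were not analysed here. Precision is limited by the number of arrays.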

Additional observations from a re-analysis of the deposited data

How the results depend on the processing

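The 11 alternatives were normexp background correction (offset 50) with quantile normalization, quantile normalization alone, median scaling, 75th percentiles over other probes, spike-in scaling, the series matrix values, outlier spots kept, the mean over the gene's probes, and 2 other filters. The percentile over probes usable on all arrays was chosen after seeing the data. Leaving out filters and probe means that could not alter a gene, 184 of 276 single-gene values moved by less than the error of a difference. Among called changes, that of CEACAM20 in KD1 turned, with spike-in scaling (0.0209), and the cause was not tested. The median change of the 6 detected genes in KD1 was -0.0314 with normexp, -0.10 with quantile normalization, 0.30 with spike-in scaling and 0.0777 with the series matrix values. In KD2 it was 0.14 with spike-in scaling, 0.00812 with normexp, -0.0571 with quantile normalization and -0.0523 with the series matrix values. Between KD1 and KD2 it was 0.0818 with median scaling, 0.16 with spike-in scaling and 0.13 with the series matrix values. The count of the 6 genes lower in KD1 was 0 with normexp, spike-in scaling, the series matrix values, the mean over probes and a fold of 2, and 2 with the 75th percentile over probes above background. With that percentile 1 was lower in KD1 than in KD2. With median scaling and with the mean over probes, 1 was lower in KD2. With spike-in scaling 1 was higher in KD1 and in KD2, and with the series matrix values 1 was higher in KD1. For the 6 lists, spike-in scaling gave 1 lower and 24 higher in KD1 and 2 lower in KD2, and the series matrix values gave 1 lower and 15 higher in KD1. Normexp gave 3 higher in KD2. With no filter 16 were lower in KD1, and 15 lower and 20 higher in KD2. A fold of 2 gave 1 lower and 3 higher in KD1 and 2 lower and 4 higher in KD2. The limma count over all genes was 83 with the percentile over usable probes, 125 with median scaling, 60 with the percentile over probes above background, 133 with spike-in scaling, 107 with the series matrix values, 96 with outliers kept and 53 with an intensity trend, and it held 0 of the 6 genes each time. Leaving out KD1 or KD2 leaves no residual degrees of freedom, and the value is then the change of the other knockdown. No paired analysis was possible because each group had 1 array.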
